A study of Homo sapiens with 134 samples.

Results

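The genes described here are 42 that act in excision repair, mismatch repair and translesion synthesis, each represented by the probe with the highest mean log2 signal over all 134 arrays (33 genes had 1 probe and 9 had several). They are 42 of the 19381 genes with a named probe on the array. They were set apart into 4 genes known to be induced by p53, namely XPC, DDB2, POLH and GADD45A, and 38 others. Of the 42 probes, 40 passed a filter at the median of the mean log2 signal of all probes, which kept 24350 of 48701 probes. POLK (6.09) and POLI (6.05) lay just below the filter of 6.23 and were described but not tested, while MLH3 (6.30) and NEIL1 (6.42) lay just above it. The filter uses the level over all arrays and not a difference between groups.

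The cells were HBEC3KT, human bronchial epithelial cells immortalized with CDK4 and hTERT, grown in serum-free keratinocyte medium, so that every group carries both transgenes and every result is from 1 line. They received iron ions (Fe, 0.5 or 1 Gy), silicon ions (Si, 0.5 or 1 Gy) or γ-rays (1 or 3 Gy), or were mock-irradiated, and were harvested 1, 4, 12 and 24 h later. The array labels call the γ-ray samples x-ray, and the study's methods give a caesium γ-ray source. Each radiation type was given in 3 of 5 campaigns (08A, 08C, 09A, 09B and 09C), which makes 9 runs of 1 type in 1 campaign. The averaged samples were 71 irradiated and 36 mock-irradiated, with 9 reference samples taken at 0 h that entered only the normalization and the filter. The Fe run 08A had no sample of 0.5 Gy at 12 h, and its value there is that of 1 Gy.

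Nucleotide excision repair finds bulky lesions through XPC and the DDB1-DDB2 complex, opens the helix with TFIIH and cuts on both sides with ERCC1-ERCC4 and ERCC5. Base excision repair removes single damaged bases with glycosylases, cuts the abasic site with APEX1 and refills it with POLB, LIG3 and XRCC1, and it deals with much of the oxidized DNA that ionizing radiation leaves. Mismatch repair corrects replication errors, MGMT reverses alkylated guanine directly, and the translesion polymerases copy past lesions that stop the replicative ones. XPC, DDB2, POLH and GADD45A are textbook targets of p53, which raises their transcription after DNA damage.

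The median raw signal per array ran between 46.2 and 104.1 in irradiated, between 45.8 and 102.2 in mock-irradiated and between 51.4 and 115.8 in reference samples. Of the basal airway markers, the 3 with a named probe (KRT5, KRT14 and ITGB4) averaged 12.4 to 13.2 log2 units. Of markers of other cells, 2 of 5 for fibroblasts, 2 of 3 for leukocytes, 1 of 2 for endothelium, 0 of 1 for ciliated cells and 2 of 2 for secretory cells passed the filter, all of them averaging under 6.5 except CD14, which averaged 8.11 and reached 11.5. Irradiated and mock samples of the same run and time deviated together from their group means (median correlation 0.68 over 71 pairs, 0.27 to 0.87). All ratios below are therefore log2 ratios within a run, averaged over both doses, against the mock sample of that time. They were tested with limma over all 24350 probes with Benjamini-Hochberg adjustment. The 1 Gy sample of the Fe run 08C at 24 h stood apart in these genes. Its absolute log2 ratio to mock had a median of 0.57 over the 42 genes and exceeded 0.5 for 26 of them, whereas in the other irradiated samples that median was at most 0.29 and at most 10 genes exceeded 0.5. Over all tested probes its median was also the highest, 0.23, but the next sample (γ-ray run 09C, 3 Gy, 24 h) had 0.20. Results that rest on this Fe sample are given with and without it, an alternative chosen after seeing the data. The labels call the runs biological replicates without saying how their cultures were separated, so p-values measure only the spread between these samples, and the number of arrays limits the precision.

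At 4 h all 4 p53-induced genes were higher on average in irradiated cells than in mock-irradiated cells, by 0.15 to 0.34 log2 units, yet none passed the adjusted threshold of 0.05. XPC, which recognizes distorted DNA for global excision repair, measured 9.14, 9.47 and 10.19 log2 units (lowest, median and highest of 9 runs) in irradiated cells and 8.66, 9.24 and 9.55 in mock-irradiated cells. The groups overlapped, but XPC was higher after irradiation in 9 of 9 runs, by 0.34 ± 0.19 (SD, n = 9, a 1.27-fold difference), with an unadjusted p of 3.68e-05 and an adjusted p of 0.056. POLH, the polymerase that copies past ultraviolet dimers, measured 7.23, 7.38 and 7.85 in irradiated and 6.79, 7.20 and 7.61 in mock-irradiated cells. It was higher in 9 of 9 runs, by 0.30 ± 0.32, with an adjusted p of 0.303, and its largest ratio, 0.96, came from the Fe run 09C. GADD45A, a stress protein that binds PCNA, was higher in 8 of 9 runs, by 0.22 ± 0.16 (adjusted p = 0.686). DDB2, the lesion-binding subunit of the DDB complex, was higher in 8 of 9 runs, by 0.15 ± 0.18 (adjusted p = 0.792).

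Whether XPC passed the threshold at 4 h turned on single choices. It did so without the Fe run 08A (0.36, adjusted p = 0.0206), without the Fe run 09C (0.31, adjusted p = 0.0358), with the chip as a random block (0.35, adjusted p = 0.0242), with the run as a random block over times (adjusted p = 0.0472) and without the Fe 08C sample at 24 h that stood apart (adjusted p = 0.0474), and over all alternatives its adjusted p lay between 0.0206 and 1. Irradiated and mock arrays shared a chip in 2 of the 9 runs at 4 h, and there the p53-induced genes exceeded the other members by 0.23.

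**Figure D1:**
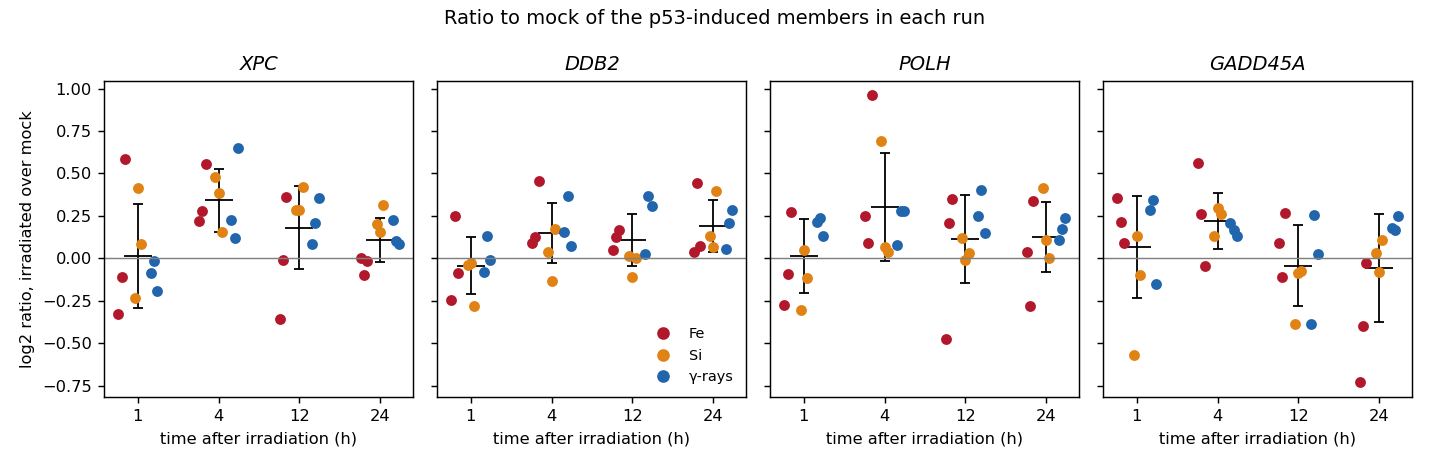
Log2 ratio of irradiated over mock-irradiated cells (y axis) by time after irradiation (x axis, h) for XPC, DDB2, POLH and GADD45A. Each point is 1 run coloured by radiation type, and the black bar gives the mean ± SD of 9 runs. At 4 h all 9 points lie above 0 for XPC and POLH and 8 of 9 for DDB2 and GADD45A, whereas at 1 h the points lie on both sides of 0 in every panel.

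An exact match to the p53 half-site RRRCWWGYYY was searched on both strands. In it R is A or G, W is A or T and Y is C or T. The search covered RefSeq promoter windows of 300 bases (GRCh38.p14, 250 before to 50 after each transcription start). Sites with a mismatch or outside these windows were not looked for, so a gene without a match may still have a p53 site. Windows were at hand for 38 of the 42 genes, and GADD45A, NEIL2, SMUG1 and POLB had none. DDB2 was the only gene of the 38 with a match, in 1 of its 2 windows, while 6.63% of all 35116 windows held at least 1. The stretch from base 1 to base 30 after that start of DDB2 (chr11:47214974-47215003, plus strand, 5′ to 3′) is shown because it carries both half-sites, in capitals, at bases 6 to 15 and 17 to 26.
DDB2: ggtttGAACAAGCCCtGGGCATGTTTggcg
Only 10 of the 35116 windows (0.0285%) held 2 half-sites at most 13 bases apart, and this was 1 of them. The match describes the letters and is not a measurement of p53 binding in these cells.

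At 1 h the p53-induced genes showed no common direction. XPC averaged 0.012 ± 0.30 (higher in 3 of 9 runs), POLH 0.013 ± 0.22 (5 of 9), GADD45A 0.067 ± 0.30 (6 of 9) and DDB2 -0.043 ± 0.17 (2 of 9), all with an adjusted p of 1. The signs of XPC, DDB2 and POLH at 1 h turned under at least 1 alternative each, and these means are smaller than the spread between runs. At 12 h XPC averaged 0.18 ± 0.24 and was higher in 7 of 9 runs (unadjusted p = 0.0166, adjusted p = 0.39), with its lowest ratio, -0.36, in the Fe run 08A. DDB2 averaged 0.11 ± 0.15 (8 of 9 runs, adjusted p = 0.592), POLH 0.11 ± 0.26 (7 of 9, adjusted p = 0.773) and GADD45A -0.045 ± 0.24 (4 of 9, adjusted p = 0.938). In the 2 runs whose irradiated and mock arrays shared a chip at 12 h, DDB2 averaged -0.0054, POLH -0.15 and GADD45A 0.23, each on the other side of 0, and XPC 0.11.

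At 24 h DDB2 had the smallest p of all 40 tested members. It measured 8.11, 8.72 and 9.53 log2 units (lowest, median and highest) in irradiated cells and 7.92, 8.44 and 9.46 in mock-irradiated cells, and was higher in 9 of 9 runs, by 0.19 ± 0.15 (unadjusted p = 0.0012, adjusted p = 0.369). The groups overlapped across runs. In the Fe run 08C DDB2 measured 8.67 at 1 Gy, in the sample that stood apart, 8.06 at 0.5 Gy and 7.92 in mock. Without that run DDB2 averaged 0.15. In the 3 runs whose irradiated and mock arrays shared a chip at 24 h DDB2 averaged 0.033. POLH averaged 0.13 ± 0.20 (8 of 9 runs, adjusted p = 0.918) and XPC 0.11 ± 0.13 (7 of 9, adjusted p = 0.925). In the sample that stood apart POLH measured 6.58 and XPC 9.06. The same run had 7.21 and 9.66 at 0.5 Gy, and 7.18 and 9.46 in mock. GADD45A averaged -0.056 ± 0.32 (5 of 9, adjusted p = 0.964), and its sign turned with the lower dose alone, without the Fe run 08A and without the Fe 08C sample that stood apart (0.0088). By an F test over time, XPC, DDB2, GADD45A, NEIL3 and PARP2 differed between times at an unadjusted p under 0.05 (5 of 40 members, against 4.24% of all tested probes). No member passed the adjusted threshold there, where 0.00821% of probes did.

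The p53-induced genes stood above the other members at 4 h in each run. The median ratio of the 4 was 0.24 ± 0.11 (mean and SD of 9 runs, 0.16 to 0.51) and that of the 38 others was -0.023 ± 0.027 (-0.049 to 0.028), beside a median of -0.0020 over all tested probes. The difference averaged 0.27 ± 0.090, lay between 0.19 and 0.48, and was above 0 in 9 of 9 runs. At 1 h it was -0.0055 ± 0.18 (above 0 in 5 of 9 runs), at 12 h 0.12 ± 0.15 (6 of 9) and at 24 h 0.13 ± 0.11 (8 of 9). The run below 0 at 24 h was Fe 08C (-0.067). Its difference was -0.41 at 1 Gy, from the sample that stood apart, and 0.22 at 0.5 Gy. The 4 genes were set apart as p53-induced with results of these data known, so the difference is given as a description with no test.

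**Figure D2:**
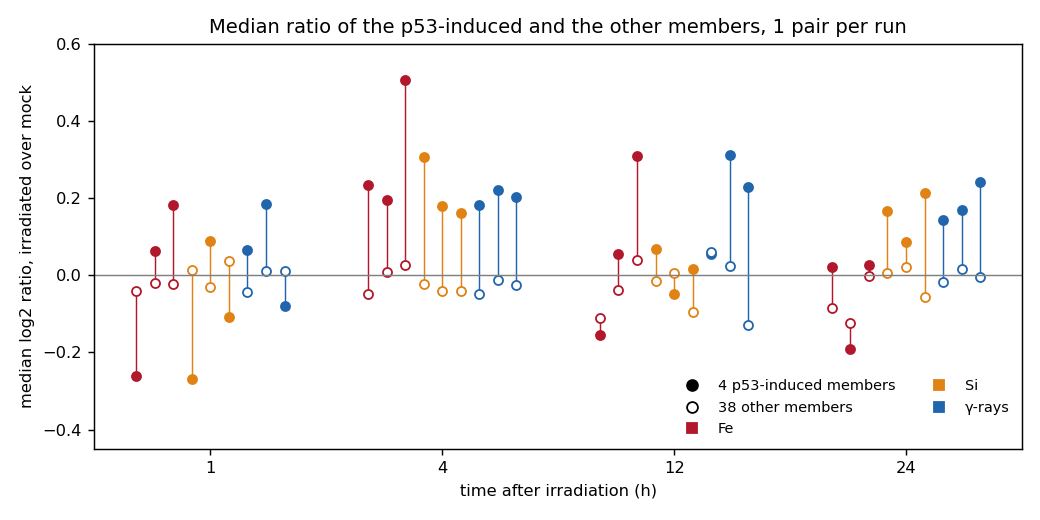
Median log2 ratio of irradiated over mock-irradiated cells (y axis) by time (x axis, h), with 1 vertical line for each run. Filled points are the median of the 4 p53-induced genes, open points that of the 38 others, and colours give the radiation type. At 4 h every filled point lies above its open point, with differences of 0.19 to 0.48, whereas at 1 h this holds in 5 of 9 runs.

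No member passed the adjusted threshold in irradiated against mock-irradiated cells at 1, 4, 12 or 24 h, where 0%, 0.0534%, 0.0945% and 0.0123% of all tested probes did. At an unadjusted p under 0.05 in limma, no member was higher or lower at 1 h (1.55% of all tested probes were higher and 1.86% lower). At 4 h 6 of 40 members were higher and 3 lower, against 2.21% and 2.88% of all tested probes. All 4 p53-induced genes were among the 6, and of the 36 other members tested 2 were higher and 3 lower. At 12 h 3 of 40 members were higher and 5 lower, against 4.49% and 4.35%. At 24 h 1 of 40 was higher and 3 lower, against 2.91% and 2.75%. The median ratio of the 38 other members was -0.0085 at 1 h, -0.021 at 4 h, -0.024 at 12 h and -0.0094 at 24 h, each within 0.03 of that of all tested probes. Quantile normalization holds the median of all tested probes near 0, and with scaling to a common median it was 0.043 at 12 h. Members named from here on for an unadjusted p, beyond the first 3 at each time, were picked after their values were seen.

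**Figure D3:**
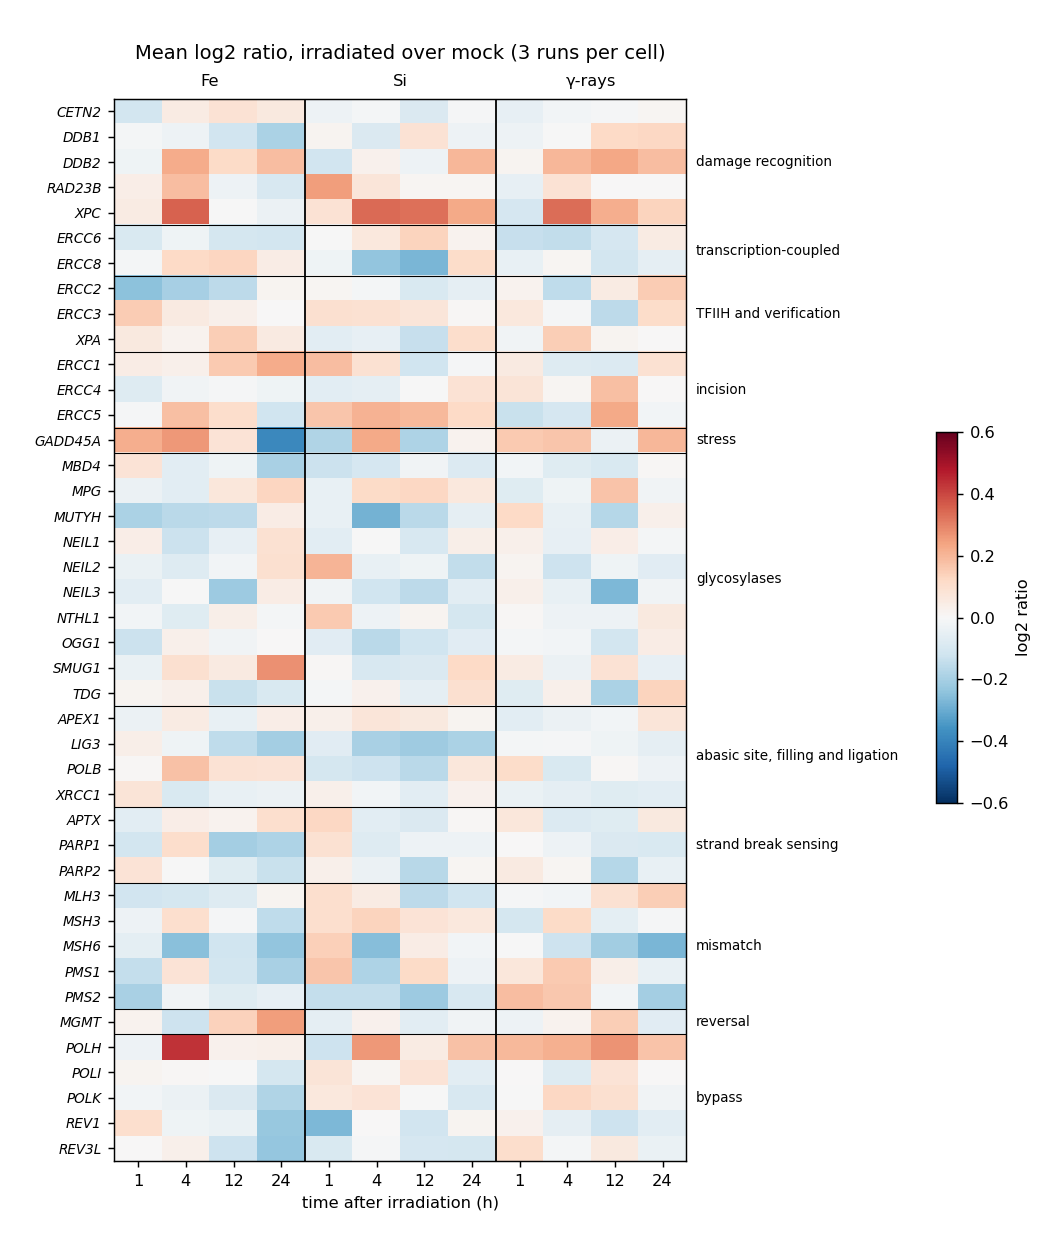
Mean log2 ratio of irradiated over mock-irradiated cells for the 42 genes (rows, by role) in each radiation type and time (columns, h). Red is higher and blue lower after irradiation, on a scale between -0.6 and 0.6, and each cell is the mean of 3 runs (Fe at 12 h has 1 run with 1 Gy alone). XPC and POLH are red at 4 h in all 3 types (0.21 to 0.43), whereas most other cells are pale.

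In the recognition step, RAD23B, the partner that stabilizes XPC, was higher at 4 h by 0.12 ± 0.14 in 7 of 9 runs (unadjusted p = 0.0348, adjusted p = 0.965). DDB1, the adaptor that holds DDB2 on a ubiquitin ligase, had a probe averaging 12.96 log2 units over all arrays, and neither it nor CETN2, the centrin that binds XPC, reached an unadjusted p under 0.05 at any time. ERCC2, a helicase of TFIIH, was lower at 4 h by 0.12 ± 0.17 (mean -0.12, lower in 6 of 9 runs, unadjusted p = 0.0125, adjusted p = 0.867). ERCC5, which makes the cut on the 3′ side, measured 9.39, 9.51 and 10.05 log2 units in irradiated cells at 12 h and 9.09, 9.40 and 9.88 in mock-irradiated cells. It was higher in 9 of 9 runs, by 0.18 ± 0.12 (unadjusted p = 0.00379, adjusted p = 0.237). The transcription-coupled factors ERCC6 and ERCC8 gave medians of -0.052, -0.035, -0.055 and 0.0098 for the pair at 1, 4, 12 and 24 h, and neither reached an unadjusted p under 0.05. The 3 smallest p values of the limma fit at 1 h belonged to ERCC3, the other TFIIH helicase, with a ratio of 0.10 ± 0.12, to ERCC1, which cuts on the 5′ side with ERCC4, with 0.094 ± 0.14, and to ERCC6 with -0.078 ± 0.11. Each had an adjusted p of 1.

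No base excision gene passed the adjusted threshold at 12 h. NEIL3, a glycosylase for oxidized bases, measured 7.58, 8.20 and 8.61 log2 units in irradiated cells and 7.78, 8.38 and 8.83 in mock-irradiated cells. It was lower in 8 of 9 runs, with a mean of -0.22 ± 0.17 (unadjusted p = 0.000139, adjusted p = 0.0639), and passed the threshold in 2 of the alternatives, without the Si run 09B (-0.26, adjusted p = 0.0308) and without the Fe 08C sample at 24 h (adjusted p = 0.0426). PARP2, which senses strand breaks, was lower in 9 of 9 runs at 12 h (mean -0.14 ± 0.064, unadjusted p = 0.00363, adjusted p = 0.23). MUTYH (-0.16 ± 0.24), TDG (-0.12 ± 0.14) and LIG3 (-0.13 ± 0.23) had an unadjusted p under 0.05 on the low side, with adjusted p values of 0.39, 0.413 and 0.446, and MPG, which removes alkylated bases, had it on the high side (0.12 ± 0.11, adjusted p = 0.326). LIG3 averaged -0.062 without the Fe run 08A and MUTYH -0.10 without the Si run 09C. Of the 10 glycosylases 3 had a mean ratio above 0 at 12 h, of the 4 genes for the abasic site, filling and ligation 0, and of the 3 strand break sensors (PARP1, PARP2 and APTX) 0, beside 12116 of all 24350 tested probes.

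The 12 h values of NEIL3, TDG and ERCC5 also turned sign among arrays of shared chips, where run and dose change together with the chip. In the 2 runs whose irradiated and mock arrays shared a chip NEIL3 averaged 0.13, TDG 0.048 and ERCC5 -0.031, each on the other side of 0 from the mean of 9 runs. Of these runs, Si 09B is also the one without which NEIL3 had its lowest mean when single runs were left out (-0.26). With the chip as a random block on all arrays no member passed at 12 h. At 4 h MUTYH was also lower (-0.16 ± 0.17, 7 of 9 runs, adjusted p = 0.9), and at 24 h LIG3, the ligase that works with XRCC1, was lower in 9 of 9 runs (-0.15 ± 0.12, unadjusted p = 0.0116, adjusted p = 0.714), while it averaged 0.0092 in the 3 runs with shared chips. Not all of these runs had both doses on the shared chip. MBD4, a thymine glycosylase, was lower at 24 h (-0.089 ± 0.18, unadjusted p = 0.0358, adjusted p = 0.838), and averaged -0.051 without the Fe run 08C.

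The mismatch repair genes had ratios on both sides of 0, and none passed the adjusted threshold. MSH6, which pairs with a partner to recognize single mismatches, measured 10.68, 11.23 and 11.65 log2 units in irradiated cells at 4 h and 10.997, 11.39 and 12.14 in mock-irradiated cells. It was lower in 7 of 9 runs at 4 h (-0.21 ± 0.16, unadjusted p = 0.00543, adjusted p = 0.721) and in 6 of 9 runs at 24 h (-0.17 ± 0.30, unadjusted p = 0.0186, adjusted p = 0.788). The 24 h mean was -0.086 without the Fe run 08C, whose ratio was -0.77. MSH3, which recognizes larger loops, was higher at 4 h in 8 of 9 runs (0.12 ± 0.12, unadjusted p = 0.026, adjusted p = 0.93). MLH3, PMS1 and PMS2 reached no unadjusted p under 0.05 at any time. Of the bypass genes other than POLH, REV1 and REV3L, a scaffold and the catalytic subunit of polymerase zeta, reached none either, and POLI (a mean level of 6.05) and POLK were not tested.

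XPC, POLH, DDB2 and GADD45A each had a mean ratio above 0 at 4 h after every radiation type. The runs of 1 type spread widely. Each type was set against its own mock samples over the 4 times with an F test. No member passed the adjusted threshold for any type, where 0.00821% of all tested probes did for Fe, 0.0657% for Si and 0.0123% for γ-rays. At an unadjusted p under 0.05 there were 3 of 40 members after Fe (ERCC2, GADD45A and DDB2, against 4.48% of all tested probes), 4 after Si (XPC, LIG3, ERCC5 and ERCC8, against 9.65%) and 2 after γ-rays (DDB2 and XPC, against 6.46%). Without the Fe 08C sample at 24 h that stood apart, GADD45A and DDB2 had an unadjusted p of 0.0705 and 0.072 after Fe. At 4 h the XPC ratio averaged 0.35 ± 0.18 in Fe runs, 0.34 ± 0.17 in Si runs and 0.33 ± 0.28 in γ-ray runs (SD, n = 3 each). For Fe minus γ-rays the difference was 0.018 (95% confidence interval -0.34 to 0.37) and for Si minus γ-rays 0.0069 (-0.35 to 0.36), so that differences of up to about the size of the response itself are within the intervals. POLH averaged 0.43 ± 0.46 in Fe runs, 0.26 ± 0.37 in Si runs and 0.21 ± 0.12 in γ-ray runs, and DDB2 0.22 ± 0.20 in Fe runs, 0.024 ± 0.15 in Si runs and 0.20 ± 0.15 in γ-ray runs. GADD45A averaged 0.26 ± 0.30 in Fe runs, 0.23 ± 0.085 in Si runs and 0.17 ± 0.039 in γ-ray runs. The difference between the p53-induced and the other members at 4 h was 0.32 ± 0.15 in Fe runs, 0.25 ± 0.068 in Si runs and 0.23 ± 0.0016 in γ-ray runs, above 0 in 3 of 3 runs of each type.

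Between radiation types, no member and no probe passed the adjusted threshold (0%), and 1 of 40 members, GADD45A, had an unadjusted p under 0.05, against 6.2% of all tested probes. At 24 h the GADD45A ratios of the 3 runs were -0.73, -0.40 and -0.030 for Fe, 0.029, -0.079 and 0.11 for Si and 0.18, 0.17 and 0.25 for γ-rays. These averages hide a split between doses in the run 08C. There the Fe value of -0.40 averages -0.98 at 1 Gy, from the sample that stood apart, and 0.19 at 0.5 Gy, and the γ-ray value of 0.18 averages -0.17 at 3 Gy and 0.53 at 1 Gy. For Fe minus γ-rays the difference was -0.59 (95% confidence interval -0.94 to -0.24, unadjusted p = 0.00179, adjusted p = 0.48). Without that sample it was -0.39 (-0.76 to -0.019, unadjusted p = 0.0398, adjusted p = 0.999), and the F test between types gave GADD45A an unadjusted p of 0.174. With all samples kept, the difference within the 2 campaigns that held both types was -0.58 (08C) and -0.28 (09C). In 08C the Fe ratio without the sample that stood apart is the 0.19 at 0.5 Gy, beside 0.18 for γ-rays. With the chip as a random block GADD45A passed the threshold of the F test after Fe, the only member to do so, where 0.349% of all tested probes passed. That fit took the arrays singly, without averaging technical replicates, and kept the sample that stood apart. ERCC2 had the next smallest p between types (0.0586, adjusted 0.814), and at 1 h its difference between Fe and γ-rays was -0.51 in campaign 09C and 0.046 in campaign 08C.

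XPC after Si at 12 h, DDB2 at 12 h and MGMT at 24 h after γ-rays, and DDB2 after Fe at 24 h, were higher at the higher dose in 3 of 3 runs, without passing the adjusted threshold. Doses were compared within runs as the higher minus the lower dose, which leaves the mock sample out. The cases just named are not the only ones with a common direction, and others went down with dose. For GADD45A after Si the 4 h difference was 0.39 ± 0.042, positive in every run. For MSH6 at 4 h every run was negative after Fe (-0.27 ± 0.12) and after Si (-0.26 ± 0.027). After γ-rays MSH6 was mixed (-0.017 ± 0.079). Again no member passed the adjusted threshold, where 0% of all tested probes did for Fe, 0.678% for Si and 0.821% for γ-rays. At an unadjusted p under 0.05 the F test over the 4 times gave 9 of 40 members for Fe (against 8.23% of all tested probes), 8 for Si (against 11.6%) and 4 for γ-rays (against 13.1%). Without the Fe 08C sample at 24 h, 1 of 40 members (XPA) had such a p for Fe, against 1.42% of all tested probes, and XPC passed the adjusted threshold for Si, where 1.89% of probes did. XPC was the first member after Si (unadjusted p = 0.00141, adjusted p = 0.0885). At 12 h its ratios to mock were 0.41, 0.54 and 0.83 at 1 Gy and 0.16, 0.030 and 0.013 at 0.5 Gy, so the doses did not overlap, and the difference was 0.52 ± 0.28 (95% confidence interval 0.28 to 0.76). At 4 h the same dose difference of XPC was -0.19 ± 0.060 after Si and 0.31 ± 0.024 for 3 against 1 Gy of γ-rays.

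DDB2 appeared for all 3 radiation types at an unadjusted p under 0.05 between doses, in directions that varied with time. After Si it was lower at 1 Gy than at 0.5 Gy at 1 h in 3 of 3 runs (-0.23 ± 0.13) and higher at 4 h in 3 of 3 runs (0.21 ± 0.18). After γ-rays its ratios at 12 h were 0.24, 0.47 and 0.60 at 3 Gy and -0.19, 0.26 and 0.019 at 1 Gy, overlapping between doses but higher at 3 Gy in 3 of 3 runs, by 0.41 ± 0.18 (F test adjusted p = 0.147). After Fe it was higher at 1 Gy than at 0.5 Gy at 24 h in 3 of 3 runs, by 0.38 ± 0.20 (F test adjusted p = 0.379), and by 0.27 without the sample that stood apart, where the F test gave an unadjusted p of 0.0995. MGMT had the smallest p between γ-ray doses (unadjusted p = 0.00274, adjusted p = 0.12). Its ratios at 24 h were 0.15, 0.26 and 0.38 at 3 Gy and -1.02, -0.043 and -0.14 at 1 Gy, and the lowest of them came from the run 08C. DDB1 led between Si doses after XPC (unadjusted p = 0.0144), with differences of -0.26 ± 0.19 at 4 h and 0.39 ± 0.25 at 12 h. It also led between Fe doses (unadjusted p = 0.00323, adjusted p = 0.31). At 24 h after Fe its ratios were -0.23, -0.98 and -0.099 at 1 Gy and 0.22, 0.081 and -0.12 at 0.5 Gy, so the mean difference of -0.49 ± 0.54 rests on the runs 08A and 08C, and was -0.21 in the 2 runs left without the sample that stood apart (F test unadjusted p = 0.0897). XPA, which verifies the lesion, was second for Fe (adjusted p = 0.333), with 0.28 ± 0.13 at 1 h and 0.26 ± 0.14 at 24 h.

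For Fe the outcome turned on 1 run and on the fit with the chip as a random block, for all probes as for these genes. Without the run 09C DDB1 and POLB passed, with 3.61% of all tested probes. With the chip as a random block DDB1, DDB2, POLB and XPA passed, with 2.76% of probes, and MGMT passed for γ-rays, with 2.22%. That fit took the arrays singly, without averaging technical replicates, so the unit of replication changed along with the chip term. Each of these fits kept the Fe sample that stood apart. The p53-induced genes exceeded the other members at 4 h by 0.31 at the higher and 0.19 at the lower dose, 2 values that share their mock samples.

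**Figure D4:**
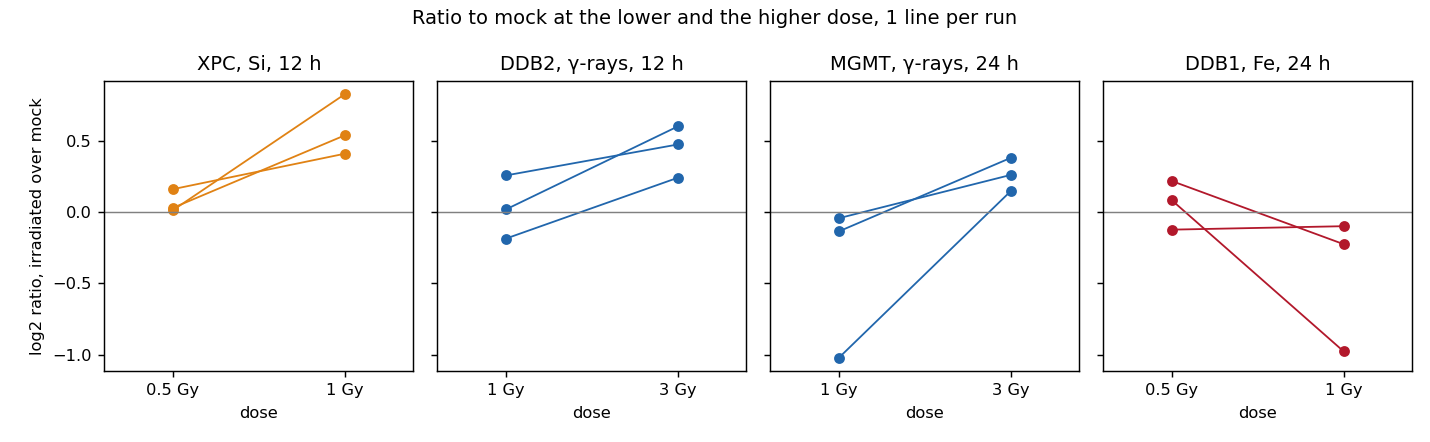
Log2 ratio of irradiated over mock-irradiated cells (y axis) at the lower and the higher dose (x axis, Gy), with 1 line for each of 3 runs. The panels show XPC after Si at 12 h, DDB2 after γ-rays at 12 h, MGMT after γ-rays at 24 h and DDB1 after Fe at 24 h, and all 3 lines go up with dose in the first 3 panels (by 0.52, 0.41 and 0.66 on average), whereas 1 line of DDB1 is nearly level.

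The levels of many of these genes differed with time in mock-irradiated culture. With the run as a block, 19 of 40 members passed the adjusted threshold (limma F test) between 1, 4, 12 and 24 h, against 25.3% of all tested probes. Their mean level was highest at 4 h for 3, at 12 h for 10 and at 24 h for 6 of them. TDG, the glycosylase for thymine and uracil mispaired with guanine, averaged 10.56 ± 0.21, 10.74 ± 0.33, 10.37 ± 0.31 and 9.92 ± 0.47 log2 units at 1, 4, 12 and 24 h (SD, n = 9 each, adjusted p = 3.4e-07), and was lower at 24 h than at 1 h in 9 of 9 runs. MUTYH, which removes adenine opposite oxidized guanine, averaged 8.86 ± 0.27, 8.62 ± 0.33, 9.19 ± 0.16 and 9.04 ± 0.21 (adjusted p = 3.89e-06), lower at 4 h and higher at 12 h than at 1 h in 9 of 9 runs each. REV1 was higher at 24 h than at 1 h in 9 of 9 runs, by 0.45 ± 0.26 (adjusted p = 6.87e-05).

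Among the p53-induced genes, XPC, GADD45A and DDB2 also changed over time in mock. XPC averaged 9.67 ± 0.39, 9.19 ± 0.32, 9.67 ± 0.44 and 10.20 ± 0.64 (adjusted p = 0.000288), and was lower at 4 h than at 1 h in 9 of 9 runs, by 0.48 on average (4 h minus 1 h, -0.48 ± 0.55). In irradiated cells it averaged 9.68 ± 0.44, 9.53 ± 0.31, 9.85 ± 0.54 and 10.31 ± 0.66 at the same times. The 4 h ratio of XPC was thus measured at the time of its lowest mean in mock, which also held for GADD45A (10.78 ± 0.22 at 4 h, adjusted p = 0.00294) and DDB2 (8.09 ± 0.25 at 4 h, adjusted p = 0.0168). POLH did not pass (adjusted p = 0.102) and averaged 7.15 ± 0.25 in mock at 4 h. The median change of the 4 genes in mock was -0.28 at 4 h, -0.037 at 12 h and 0.31 at 24 h relative to 1 h, beside 0.0019, 0.0018 and 0.0019 over all tested probes, which quantile normalization holds near 0.

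The count in mock depends on the scaling between arrays. When quantile normalization was replaced by a single scaling factor per array, set on the median, 2 of 40 members (MSH6 and TDG) and 962 of 24350 probes passed, and without the run as a block 12 of 40 members and 2693 probes did. The 10 members with their highest mean at 12 h included PARP1, PARP2, APTX and NEIL3, and the cell cycle genes set beside them (MKI67, TOP2A and 10 others) had a median of 0.43 at 12 h relative to 1 h, above 0 for 12 of 12. Whether cycling and these levels are linked was not tested. PARP2, NEIL3, MUTYH and LIG3, lower after irradiation at 12 h, had their highest mean in mock at 12 h. MSH6, lower at 4 h, had its highest at 4 h. TDG, lower at 12 h, had its highest at 4 h, and MUTYH, also lower at 4 h, had its lowest there.

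**Figure D5:**
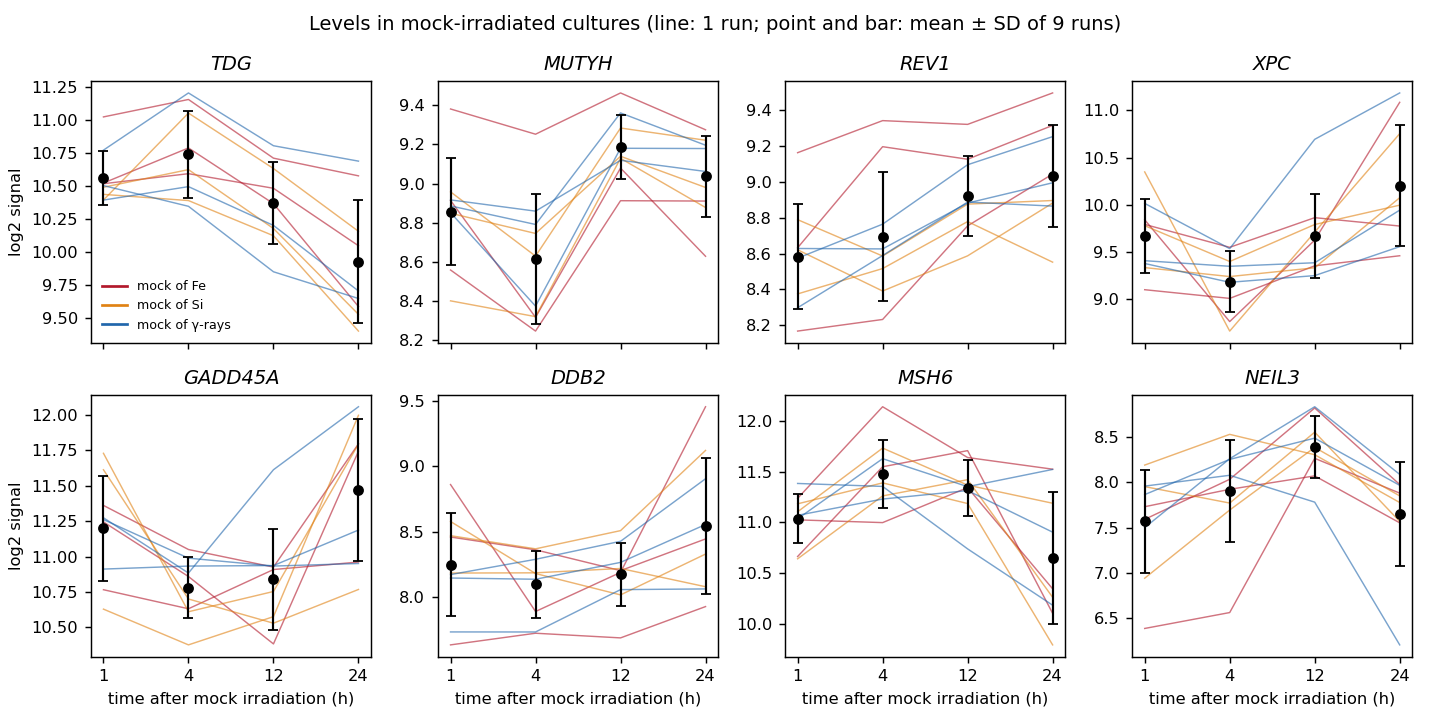
Log2 signal (y axis) of 8 members in mock-irradiated cultures by time (x axis, h). Thin lines are the 9 runs, coloured by the radiation type they served as mock for, and points with bars are the mean ± SD. TDG falls to 9.92 at 24 h, and XPC and GADD45A are lowest at 4 h (9.19 and 10.78) and highest at 24 h (10.20 and 11.47).

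Genes of the same pathways outside the 42 were set beside them. Of 33 further repair and translesion genes listed, 31 had a probe and 30 were tested, and none passed the adjusted threshold at any time. At an unadjusted p under 0.05, 0 were higher and 3 lower at 4 h, and 2 were higher and 5 lower at 12 h, with medians of -0.018 and -0.071. Of all tested probes 2.21% were higher and 2.88% lower at 4 h, and 4.49% higher and 4.35% lower at 12 h. UNG, the uracil glycosylase of replicating DNA, was lower at 4 h (-0.15 ± 0.18, adjusted p = 0.791) and at 12 h (-0.18 ± 0.24, adjusted p = 0.195). The cell cycle genes had medians of -0.058, -0.091 and -0.091 at 4, 12 and 24 h, and their part in the lower values of NEIL3 and UNG was not tested. The p53 targets outside repair set beside the 4 genes (8 of 10 with a probe) had a median of 0.30 at 4 h, and 2 of them, CDKN1A (0.61 ± 0.071) and TP53INP1 (0.41 ± 0.14), passed the adjusted threshold, with adjusted p values of 4.82e-09 and 0.0029. Among all tested probes 0.0534% passed at 4 h. RRM2B, a ribonucleotide reductase subunit, was higher by 0.31 ± 0.25 in 9 of 9 runs (adjusted p = 0.113), beside 0.34 for XPC and 0.30 for POLH. MDM2, the ligase that degrades p53, averaged -0.065 ± 0.50 (higher in 5 of 9 runs) and AEN, a nuclease, 0.035 ± 0.12 (5 of 9), and both had an adjusted p of 0.988.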

How the data were processed

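The study used 134 HumanWG-6 V2 bead arrays from Illumina, on 35 chips. The deposited table of mean bead intensity values holds the authors' BeadStudio output without background subtraction or normalization. The authors' value table of log2 signals was background-subtracted and quantile-normalized by the authors and served as an alternative. The genome build behind the array's probe annotation is not given in the sources used here.

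Intensities were corrected with normexp (offset 50), quantile-normalized and log2-transformed. Arrays labelled as technical replicates were averaged, which left 116 samples. The fit with the chip as a random block took the arrays singly instead. Probes above the median mean level were tested. The 36 responses were fitted in limma 3.58.1 (R 4.3.3) with 12 means, 24 residual and 8.31 prior degrees of freedom, and mock over time with time and run. Mock was paired within the run because irradiated and mock samples share a radiation type and biological replicate in the labels, and all 71 pairs correlated above 0.1. Calls are at an adjusted p under 0.05. Of 48701 probes, 24303 carry 1 gene symbol in the platform annotation, 0 several and 24398 none, and symbols were updated through RefSeq. The tests were checked on simulated data. Alternatives were no background correction, scaling to a common median, the authors' value table, no filter, robust eBayes with a trend, single doses, all probes of a gene, a stricter threshold, run or chip as a block, no block, arrays of 1 chip and leaving out each run. Leaving out the 1 Gy sample of the Fe run 08C at 24 h was added after seeing the data.

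Named were the 4 p53-induced genes at every time, members past the threshold, the 3 smallest p at each time, the 2 smallest between types, doses and times in mock, and the members with the highest and lowest mean level. The members, lists and rule were chosen with earlier results of these data known.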

Additional observations from a re-analysis of the deposited data

Results flagged for a closer look

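Of 57 member and set values examined over the 9 runs, 4 had a run far from the other 8, and chance alone flags about 1 in 20. For POLH at 12 h the Fe run 08A had a log2 ratio of -0.48, while the nearest run had -0.013. The difference between the p53-induced and the other members at 4 h reached 0.48 in the Fe run 09C, above the next run at 0.33. In mock-irradiated cultures, RAD23B at 4 h minus 24 h was 0.82 in the γ-ray run 09C and 0.39 in the next run, and PARP1 at 12 h minus 24 h was -0.14 in the γ-ray run 08C, while the nearest run had 0.40.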

How the results depend on the processing

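The difference between the p53-induced and the other members at 4 h lay between 0.19 and 0.33 under 20 alternatives, and between 0.24 and 0.28 when single runs were left out. The replicate block over times, with a correlation of 0.0797 between the times of a run, gave 1 member at 4 h (XPC) and 14 of 24350 probes, and no replicate block gave 0 members in irradiated against mock and 12 members, with 2693 probes, over time in mock. With the chip as a random block, fitted on single arrays, there was 1 member at 4 h (XPC, with 12 probes in all), 1 after Fe (GADD45A, with 85), 4 between Fe doses (DDB1, DDB2, POLB and XPA, with 672) and 1 between γ-ray doses (MGMT, with 540). Leaving out the Fe 08C sample of 1 Gy at 24 h, chosen after seeing the data, gave 1 member at 4 h (XPC, with 18 probes), 1 at 12 h (NEIL3, with 60) and 1 between Si doses (XPC, with 461), and a GADD45A ratio of 0.0088 at 24 h. Scaling each array to the same median gave 2 members and 962 probes in mock. Leaving out single runs gave 0 to 1 members at 4 h, 0 to 1 at 12 h, 0 to 2 between Fe doses (880 probes without the run 09C) and 17 to 21 in mock, and 0 in each other comparison.

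Signs turned for ratios that were not past the threshold. In the 2 runs with shared chips at 12 h POLH was -0.15, GADD45A 0.23, DDB2 -0.0054, NEIL3 0.13, TDG 0.048 and ERCC5 -0.031, in the 3 at 24 h LIG3 was 0.0092, and in the 6 at 1 h DDB2 was 0.021. These values use only the doses on the shared chip, so run and dose change along with it. GADD45A at 12 h was 0.057 with a common median. At 1 h XPC was -0.019 at the higher dose and -0.0069 with the chip as a block, and at the lower dose DDB2 was 0.0034 and POLH -0.0064. GADD45A at 24 h was 0.027 at the lower dose. When single runs were left out, XPC at 1 h lay between -0.078 and 0.075, POLH at 1 h between -0.038 and 0.053, GADD45A at 12 h between -0.094 and 0.014 and GADD45A at 24 h between -0.12 and 0.0016. The cause was not tested. Among the 19 members that changed in mock, OGG1 and RAD23B passed in 5 and 6 of 16 alternatives and the others in 13 to 16.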
